A study of Mus musculus with 6 samples.

Results

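The genes described here belong to the YAP-TEAD pathway, and they were measured after knockdown of Tip5 in E14, a line of mouse embryonic stem cells. The 9 genes are the secreted matricellular proteins Ccn1 (Cyr61) and Ccn2 (Ctgf), the further target genes Ankrd1, Amotl2 and Lats2, the coactivator Yap1, and the TEA-domain transcription factors Tead1, Tead2 and Tead4. Members were found by gene symbol, with every probe annotated to one of these symbols taken, which gave 14 of 25697 probes and 9 of 16593 genes. The genes were selected on the differences between knockdown and control on these same arrays, whose results were known when the set was proposed, so their differences between the groups are given as a description, with standard errors (SE) and without p-values for single members. Counts of members called are printed only beside the share of all tested genes called, and nothing is read from them.

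Of the 14 probes, 10 probes covering 7 genes entered the comparison, for which a signal above background (a detection p-value below 0.05) was required on 3 or more of the 6 arrays. The only probes of Tead1 and Lats2 were above background on 0 of the 6 arrays, so these data give no more than an upper bound for both genes. A further probe of Ccn1 and one of Ankrd1 were each above background on 1 array.

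Tip5 is the product of Baz2a and forms, with an ISWI ATPase, a chromatin remodelling complex of the nucleolus. The knockdown samples were 3 cultures of E14 cells electroporated with Tip5 shRNA (Tip5-shRNA), in which several shRNA constructs with different selection markers were combined, and the control samples were 3 cultures of wild type E14 cells given a non-specific shRNA (control-shRNA). In all cultures antibiotic selection began 72 hours after electroporation and lasted 6 days. The cells grew on gelatin with 20% serum and 1000 U/ml of leukaemia inhibitory factor, and are labelled as passage 3 after transfection. The antibiotics, the shRNA sequences and the number of constructs per culture are not given in the labels. Values are background-corrected, quantile-normalized log2 levels of single array probes, and a difference of 1 on this scale is a doubling.

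In mammals the Hippo kinases restrain YAP: the kinases of the MST family act with the scaffold SAV1 on the LATS kinases, which phosphorylate YAP and keep it out of the nucleus. Nuclear YAP has no DNA-binding domain of its own and acts through TEAD factors, whose usual target genes include Ccn1, Ccn2 and Ankrd1. Amotl2 and Lats2 are target genes whose products hold YAP back, which makes them feedback inhibitors. In the early mouse embryo TEAD4 with YAP directs the trophectoderm programme.

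The motif that TEAD factors bind is shown in the promoters of 3 target genes with a RefSeq window and a detected probe, because GGAATG is the core of the site by which TEAD factors recognise their targets. The lines give the 250 bases before the start site in build GRCm38.p6, 5′ to 3′ on the strand of the gene, with each GGAATG, read on either strand, in capitals.
Ccn1 (chr3:145649986-145650235, minus strand): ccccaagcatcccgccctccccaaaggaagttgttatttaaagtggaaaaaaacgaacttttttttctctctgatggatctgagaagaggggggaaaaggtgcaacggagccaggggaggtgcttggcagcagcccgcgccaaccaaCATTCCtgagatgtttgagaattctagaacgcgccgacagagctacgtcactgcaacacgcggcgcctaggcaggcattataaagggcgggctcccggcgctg
Ankrd1 (chr19:36119845-36120094, minus strand): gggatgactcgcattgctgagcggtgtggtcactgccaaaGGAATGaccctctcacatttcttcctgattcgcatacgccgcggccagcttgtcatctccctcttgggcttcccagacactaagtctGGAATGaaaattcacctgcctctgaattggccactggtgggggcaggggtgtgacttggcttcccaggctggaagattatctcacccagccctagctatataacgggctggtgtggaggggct
Amotl2 (chr9:102717554-102717803, plus strand): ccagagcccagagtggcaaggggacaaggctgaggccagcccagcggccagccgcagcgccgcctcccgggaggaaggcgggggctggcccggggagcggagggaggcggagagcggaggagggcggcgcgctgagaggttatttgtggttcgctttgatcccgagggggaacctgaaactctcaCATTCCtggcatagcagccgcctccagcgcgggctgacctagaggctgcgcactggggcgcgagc
Among these windows, the match in Ccn1 began 103 bases before the start site, that in Amotl2 65 bases, and those in Ankrd1 210 and 123 bases. RefSeq windows that run from 250 bases before to 50 bases after the start were matched for 6 of the 9 genes (Ccn1, Ankrd1, Amotl2, Lats2, Yap1 and Tead2), and for Ccn2, Tead1 and Tead4 none is shown. At least 1 GGAATG lay in 5 of the 7 windows of these 6 genes and in 14.7% of all 32851 windows of 300 bases. Tead2 was the only one of the 6 genes without a match. Lats2 had 2 windows and 1 match, which began at base 5 after the start site. At least 2 GGAATG lay in the window of Ankrd1 and in 1.36% of all windows. The AP-1 motif TGANTCA (either strand; in 7.81% of all windows) and the CArG box bound by SRF (in 1.63%) were found in 0 of the 7 windows of these genes. A match is a run of letters and not evidence of binding.

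The knockdown itself was read by 1 probe of Baz2a, at 5.21, 4.74 and 5.13 in Tip5-shRNA replicates 1, 2 and 3, against 6.42, 7.51 and 5.99 in control-shRNA replicates 1, 2 and 3. Tip5-shRNA replicate 2 was not above background, so the size of the difference rests in part on a background value. The difference was -1.62 (SE 0.39), the groups did not overlap, and the limma adjusted p of 0.203 (0.0810 with the replicate number as a block) missed the threshold of 0.05. It was -0.53 with no background correction and -2.07 in the authors' processed values, and the limma adjusted p was 0.0182 with array weights and 0.0346 with replicates 1 and 2 only. Every one of the 9 embryonic stem cell markers analysed, Pou5f1 and Nanog among them, was above background on all 6 arrays. Mean signals were 529.4, 509.7 and 1092 in Tip5-shRNA replicates 1, 2 and 3 and 544.0, 486.2 and 876.5 in control-shRNA replicates 1, 2 and 3, so the replicate 3 arrays of both groups were the brightest before normalization. They also stood apart after it, on a first principal component with 52.8% of the variance, and the values without them are given beside the results that they change most. In all, 7 of 9015 tested genes were called with 2-group means, 0 of them higher (before adjustment, 1009 genes had a limma p under 0.05), and 176 with the replicate block, 66 of them higher.

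The secreted targets were higher in the knockdown, and Ccn2 was so in all 3 pairs of same-numbered arrays. Ccn2, a matricellular protein that binds growth factors and integrins and the most widely used readout of YAP activity, stood at 12.42, 12.22 and 12.64 in Tip5-shRNA replicates 1, 2 and 3 and at 11.28, 11.06 and 11.36 in control-shRNA replicates 1, 2 and 3. All 3 knockdown arrays lay above all 3 control arrays, by far more than either group's spread. The means were 12.43 ± 0.21 in Tip5-shRNA and 11.24 ± 0.16 in control-shRNA cells (SD, n = 3 each), a difference of 1.19 (SE 0.19) or 2.28-fold. Within the same-numbered pairs the difference was 1.14, 1.16 and 1.28. How close the first 2 values lie depends on the numbering. The data hardly set pairs 1 and 2 apart: deviations of Tip5-shRNA replicate 2 correlated at 0.456 with control-shRNA replicate 1, against 0.441 within pair 1. With the replicate 3 arrays of both groups left out, it was 1.21.

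Ccn1, the close relative of Ccn2 and an immediate early gene as well as a YAP target, was read by 3 probes. Its brightest probe stood at 6.69, 6.32 and 7.52 in Tip5-shRNA replicates 1, 2 and 3 and at 6.02, 6.25 and 5.78 in control-shRNA replicates 1, 2 and 3. The groups did not overlap, but knockdown replicate 2 exceeded control replicate 2 by no more than 0.06, and the distance came mostly from replicate 3. The difference was 0.83 (SE 0.32), with 0.68, 0.06 and 1.74 in the pairs. A second probe, above background on 3 of 3 Tip5-shRNA and 1 of 3 control-shRNA arrays, gave 1.14 (SE 0.50), with 1.03, 0.53 and 1.86 in the pairs. The third probe was above background on Tip5-shRNA replicate 3 alone, at 5.57. Without both replicate 3 arrays the first 2 probes gave 0.33 and 0.59. Ccn1 thus shared the direction of Ccn2 on all 3 pairs, with a size that varied far more.

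**Figure D1:**
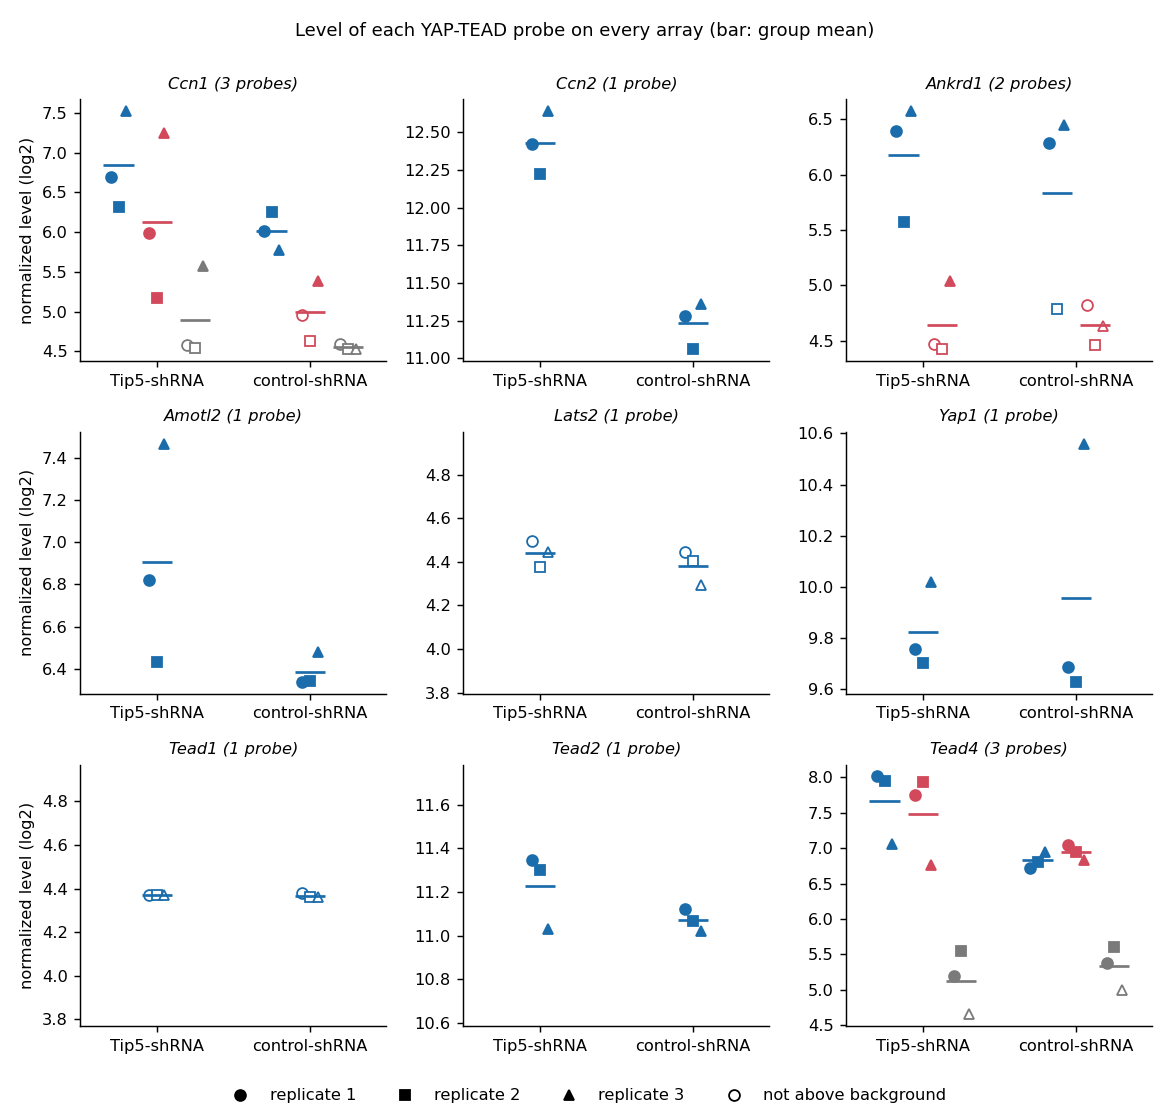
Normalized log2 level of each probe of the 9 YAP-TEAD genes on every array, Tip5-shRNA on the left of each panel and control-shRNA on the right; colours separate the probes of a gene, symbols the replicates, bars are group means over 3 arrays, and open symbols are probes not above background. The vertical axes differ between panels and do not start at 0. Ccn2 separates the groups on all arrays, Ccn1 and Amotl2 are highest on Tip5-shRNA replicate 3, 2 probes of Tead4 are highest on Tip5-shRNA replicates 1 and 2, and Lats2 and Tead1 are at background throughout.

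Amotl2, an angiomotin family protein that binds YAP and keeps it outside the nucleus, followed the order of Ccn1 over the knockdown arrays, though not over the control arrays. It stood at 6.82, 6.43 and 7.47 in Tip5-shRNA replicates 1, 2 and 3 and at 6.34, 6.34 and 6.48 in control-shRNA replicates 1, 2 and 3. Knockdown replicate 2 lay under control replicate 3, so the groups overlapped, and the difference was 0.52 (SE 0.27) and 0.26 without the replicate 3 arrays. The control arrays were close together (SD 0.08, n = 3), and the knockdown arrays were spread (SD 0.52, n = 3).

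Ankrd1, a cardiac ankyrin repeat protein and a standard YAP target in many cell types, stood near the floor of the measurement. The brighter of its 2 probes gave 6.39, 5.57 and 6.57 in Tip5-shRNA replicates 1, 2 and 3 and 6.28, 4.78 and 6.45 in control-shRNA replicates 1, 2 and 3, and control replicate 2 was not above background. The groups overlapped almost wholly. The difference was 0.34, with an SE of 0.48 between 2-group means and of 0.18 with the replicate block, and with 0.11, 0.79 and 0.12 in the pairs. It was -0.19 when control replicate 2 alone was left out and 0.12 when both replicate 2 arrays were. The other probe was above background on Tip5-shRNA replicate 3 alone. For Lats2, the kinase that phosphorylates YAP, the signal was not above background on any array, and no difference can be read.

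Among the TEAD factors, the brighter probes of Tead4 were higher in the knockdown mainly in replicates 1 and 2. Tead4, the TEAD factor needed for trophectoderm in the mouse embryo, was read by 3 probes. The brightest stood at 8.01, 7.95 and 7.06 in Tip5-shRNA replicates 1, 2 and 3 and at 6.72, 6.81 and 6.95 in control-shRNA replicates 1, 2 and 3. The groups did not overlap, yet knockdown replicate 3 exceeded the highest control array by little. The difference was 0.85 (SE 0.28), with 1.29, 1.14 and 0.11 in the pairs. The second probe showed the same split, at 7.75, 7.93 and 6.77 in Tip5-shRNA and 7.04, 6.94 and 6.83 in control-shRNA replicates 1, 2 and 3, a difference of 0.54 (SE 0.31) with knockdown replicate 3 the lowest of the 6 arrays. Without the replicate 3 arrays these probes gave 1.17 and 0.81. The third probe, dim and above background on 2 of 3 arrays in each group, went the other way at -0.20 (SE 0.28), so the probes of Tead4 did not agree.

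Tead2, the TEAD factor with a known role in mouse embryonic stem cells, was bright on all arrays and differed little. It stood at 11.35, 11.30 and 11.03 in Tip5-shRNA replicates 1, 2 and 3 and at 11.12, 11.07 and 11.02 in control-shRNA replicates 1, 2 and 3, a difference of 0.16 (SE 0.17, and 0.13 with the replicate block). Yap1 stood at 9.76, 9.70 and 10.02 in Tip5-shRNA and at 9.69, 9.63 and 10.56 in control-shRNA replicates 1, 2 and 3. Both replicate 3 arrays were the highest of their group, and the control one was the highest of all 6. The difference of Yap1 was -0.13 (SE 0.28), and 0.07 without the replicate 3 arrays.

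**Figure D2:**
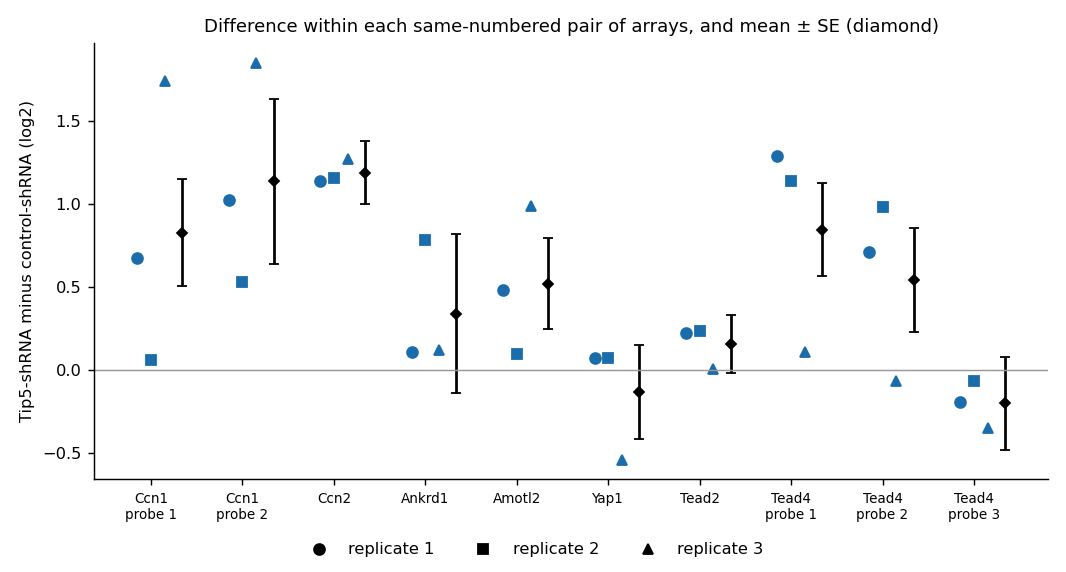
Difference between Tip5-shRNA and control-shRNA (log2) within each same-numbered pair of arrays for the 10 probes that entered the comparison. The diamond is the mean of the 3 pairs. Its bar is the SE of the difference between group means, fitted without the replicate block, and not that of the paired differences. Probes of a gene are numbered from the brightest. The 3 pairs of Ccn2 lie between 1.14 and 1.28, pair 3 is the highest for both Ccn1 probes and for Amotl2, and pair 3 is the lowest for each Tead4 probe.

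Read over the 7 genes that entered the comparison, 6 were higher in Tip5-shRNA and Yap1 was lower, with a median difference of 0.52 against 0.02 over all 9015 tested genes. The genes were chosen with these differences known, so this median and the counts that follow support nothing by themselves. In 3 of the 7 genes (Ccn1, Ccn2 and Tead4) all knockdown arrays lay above all control arrays, as in 8.96% of all tested genes, and 17.0% of all tested genes were without overlap in either direction. In 6 of the 7 the knockdown was above the control in each of the 3 pairs, as in 25.0% of all tested genes. Before adjustment 3 of the 7 had a limma p under 0.05 with 2-group means, against 1009 of all 9015 tested genes. After adjustment limma called 0 of the 7 with 2-group means, against 0.0776% of all tested genes. With the replicate number as a block it called 1 of the 7, Ccn2, which was higher, against 0.732% of all tested genes called higher, 1.22% called lower and 1.95% in either direction. When the replicate 3 arrays were dropped, an alternative added once the data had been seen, limma called Ccn2 and Tead4, both higher, against 3.44% of all tested genes called higher and 8.35% in either direction.

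Beside these differences, markers of other cell types varied between the arrays. The summed level of 10 primitive endoderm markers on the linear scale was 3118, 2926 and 18890 in Tip5-shRNA replicates 1, 2 and 3 and 4536, 5177 and 6049 in control-shRNA replicates 1, 2 and 3. Knockdown replicate 3, in which Ccn1, Ccn2 and Amotl2 were highest and Tead4 was lowest of its group, thus had the highest endoderm sum, and all 10 of the markers were above background there. Sparc, Col4a1 and Dab2 made up 12775 of its sum, and the other 7 markers made up 6115. Those 7 include Lama1, which stood there at 12.16, above Col4a1 (11.86) and Dab2 (11.08), so the 3 named genes were not the 3 largest. The defining factor Gata6 stood at 4.90, 5.13 and 9.84 in Tip5-shRNA replicates 1, 2 and 3 and at 6.42, 5.70 and 6.93 in control-shRNA replicates 1, 2 and 3. The part of such cells in the differences of Ccn1, Ccn2, Amotl2 and Tead4 was not tested, and in RNA from whole cultures, more cells of a type and more RNA per cell cannot be told apart. Without both replicate 3 arrays, the difference of Ccn2 was 1.21, against 1.19 with them. That of the first Ccn1 probe was 0.33 against 0.83, and that of Amotl2 0.26 against 0.52. The brightest Tead4 probe gave 1.17 against 0.85.

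The summed level of 10 fibroblast markers, cells in which Ccn1 and Ccn2 are abundant, was 227.4, 260.6 and 231.2 in Tip5-shRNA and 527.8, 328.6 and 302.4 in control-shRNA replicates 1, 2 and 3. The lower sums of the knockdown arrays lay in Thy1, a surface protein not limited to fibroblasts, at 100.3, 152.6 and 141.1 in Tip5-shRNA and 384.3, 235.4 and 214.2 in control-shRNA replicates 1, 2 and 3. The other 9 markers summed to 127.1, 108.0 and 90.03 in Tip5-shRNA and to 143.4, 93.28 and 88.23 in control-shRNA replicates 1, 2 and 3, ranges that overlap. Col3a1, Lum and Postn were above background on 0 of the 6 arrays. The 8 trophectoderm markers summed to 1219, 1147 and 2814 in Tip5-shRNA and to 861.9, 1049 and 1387 in control-shRNA replicates 1, 2 and 3, with Eomes, Elf5 and Hand1 above background on 0 of the 6 arrays. Cdx2, the trophectoderm factor that TEAD4 acts on in the mouse embryo, was above background on 1 of 3 Tip5-shRNA and 0 of 3 control-shRNA arrays. The sum was highest on knockdown replicate 3, where Tead4 was lowest of its group. There the keratins Krt8 and Krt18, which other epithelial cells also express, made up 2532 of the 2814, and the other 6 markers made up 282.1.

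**Figure D3:**
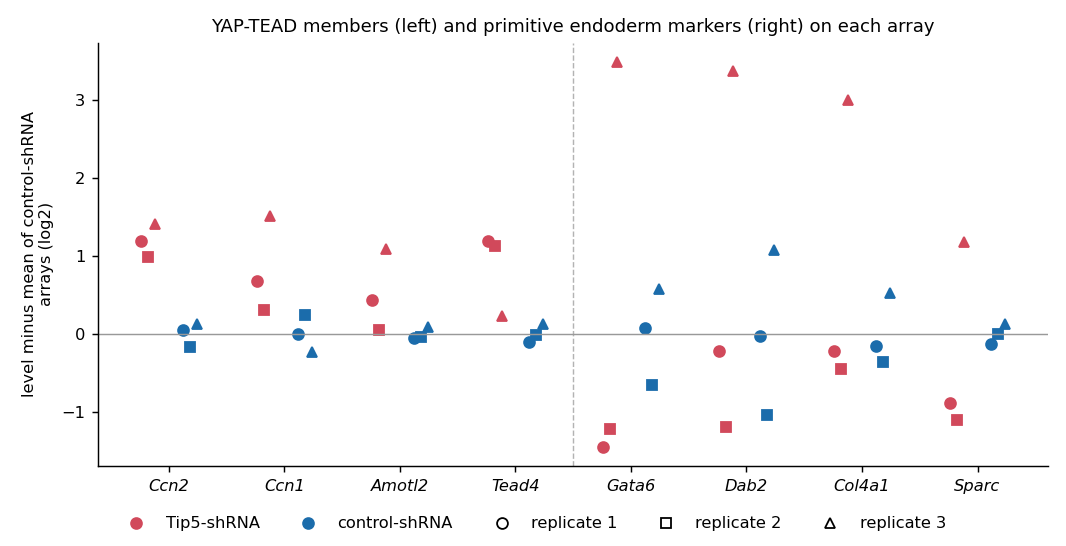
Level of 4 YAP-TEAD genes (left of the dashed line) and 4 primitive endoderm markers (right) on each array, as the log2 difference from the mean of the control-shRNA arrays; red symbols are Tip5-shRNA and blue symbols control-shRNA arrays, and shapes are replicates. Tip5-shRNA replicate 3 is the highest array for Gata6, Dab2, Col4a1 and Sparc, as for Ccn1, Ccn2 and Amotl2, while for Tead4 it is the lowest of the 3 knockdown arrays.

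The rest of the pathway was read from lists of 72 further genes, of which 37 entered the comparison. Limma called 0 of the 37 with 2-group means and 0 with the replicate block, against 0.0776% and 1.95% of all tested genes. Before adjustment, 7 of the 37 had a limma p under 0.05 with 2-group means, against 1009 of all 9015 tested genes. With the replicate block 13 of the 37 had one, against 2059 of 9015. Of the 37 genes, 23 were higher in Tip5-shRNA, and in 6 all knockdown arrays lay above all control arrays, where 8.96% of all tested genes did so. In 3 of the 37 all knockdown arrays lay below all control arrays, against 8.00% of all tested genes. Some of the 37 passed the filter mainly or only through the knockdown arrays, so these counts are a description and no support.

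Further YAP target genes, of a list commonly used to score YAP and TAZ activity in human tumours, had a median difference of 0.76 over the 8 of 17 that entered the comparison, 7 of them positive. Some of these passed the filter mainly through the knockdown arrays, so the median is a description and no support. Nt5e, an ecto-nucleotidase, stood at 5.91, 5.17 and 6.79 in Tip5-shRNA and at 5.41, 4.54 and 4.78 in control-shRNA replicates 1, 2 and 3, and was above background on 1 of the 3 control arrays (difference 1.05, SE 0.43, limma adjusted p = 0.449). Its difference was 0.43 with replicates 1 and 2 only, and its other probe was above background on 0 of the 6 arrays. Gadd45a, a growth arrest gene that p53 also induces, stood at 11.14, 10.70 and 11.10 in Tip5-shRNA and at 9.80, 10.27 and 10.49 in control-shRNA replicates 1, 2 and 3, without overlap (0.79, SE 0.24, limma adjusted p = 0.294). Ptpn14, a phosphatase that binds YAP, stood at 6.60, 6.51 and 7.36 in Tip5-shRNA and at 5.94, 6.17 and 6.02 in control-shRNA replicates 1, 2 and 3, again without overlap (0.78, SE 0.26, limma adjusted p = 0.335). Its difference was 0.44 with replicates 1 and 2 only. Igfbp3 and Fjx1 had differences of 0.75 and 0.77, Asap1 and Nuak2 of 0.12 and 0.14, and the receptor kinase Axl of -0.03. None of these 8 passed the threshold in either fit. F3, Crim1, Foxf2 and Rbms3 were above background on 0 of the 6 arrays. Tgfb2 was above background on 2 of the Tip5-shRNA and 0 of the control-shRNA arrays, and the size of its difference cannot be read.

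The Hippo kinases and their regulators did not lean to one side. Of 17 genes that entered the comparison, 9 were positive and 8 negative, with a median of 0.06. For Wwc2 and Patj the probes differed in sign. The brightest probe of Wwc2 gave 0.20 and its other probe -0.90, and the brightest of Patj gave -0.31 and another 0.36. Wwc1 (Kibra), an upstream activator of the LATS kinases, stood at 8.79, 9.35 and 8.29 in Tip5-shRNA and at 9.76, 9.69 and 9.40 in control-shRNA replicates 1, 2 and 3, a difference of -0.81 (SE 0.29, limma adjusted p = 0.375, and 0.0847 with the block), and its other probe gave -0.40. Rassf1, a scaffold of the MST kinases, stood at 9.62, 9.42 and 9.81 in Tip5-shRNA and at 8.99, 8.96 and 8.72 in control-shRNA replicates 1, 2 and 3, a difference of 0.72 (SE 0.19, limma adjusted p = 0.231, and 0.0847 with the block), and its other probe gave 0.86. For both genes the groups did not overlap. Ajuba, a LIM protein that holds back the LATS kinases, differed by 0.43 (SE 0.22, limma adjusted p = 0.575).

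Of the other cofactors, Wwtr1 (TAZ), the paralog of Yap1, differed by -0.07 (SE 0.23, limma adjusted p = 0.967), with its other probe at 0.28. Tead3 and Vgll1 were above background on 0 of the 6 arrays. Vgll2 and Vgll4 were above background on 2 and 1 of the Tip5-shRNA arrays and on 0 of the control-shRNA arrays. Of the other CCN family genes, Ccn4, a Wnt-induced member, stood at 6.58, 6.28 and 5.72 in Tip5-shRNA and at 5.22, 5.15 and 5.54 in control-shRNA replicates 1, 2 and 3, a difference of 0.89 (SE 0.26, limma adjusted p = 0.274). Like Tead4, it was higher mainly in knockdown replicates 1 and 2, and with those replicates only it passed the threshold (1.03, limma adjusted p = 0.0180). That choice was made after the data were seen, and under it 3.44% of all tested genes were called higher and 8.35% in either direction. The other probe of Ccn4 was above background on 0 of the 6 arrays.

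Ccn1 and Ccn2 are also targets of the serum response factor SRF, and 18 genes of that response were read beside them. Of the 10 that entered the comparison, 6 were positive and 4 negative, with a median of 0.24. Tagln passed the filter only through the knockdown arrays and Egr2 and Egr3 mainly so, which makes these counts and the median a description and no support. Tagln, a smooth muscle actin-binding protein, was above background on 3 of 3 Tip5-shRNA and 0 of 3 control-shRNA arrays (limma adjusted p = 0.507). It stood at 6.16, 5.17 and 5.36 in Tip5-shRNA and at 5.03, 4.99 and 4.80 in control-shRNA replicates 1, 2 and 3. With the control arrays set at their lowest detected signal, the group means of these levels differed by 1.41-fold, mostly through Tip5-shRNA replicate 1. With no background correction the log2 difference of Tagln was 0.16. Tpm1, a tropomyosin, differed by 0.57 (SE 0.19, limma adjusted p = 0.347) without overlap, and Egr2 by 0.55 (SE 0.34, limma adjusted p = 0.677). The immediate early gene Egr1 gave 0.26 and Fos -0.30, and the brightest probe of Srf itself gave -0.07 and its other probe 0.21.

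**Figure D4:**
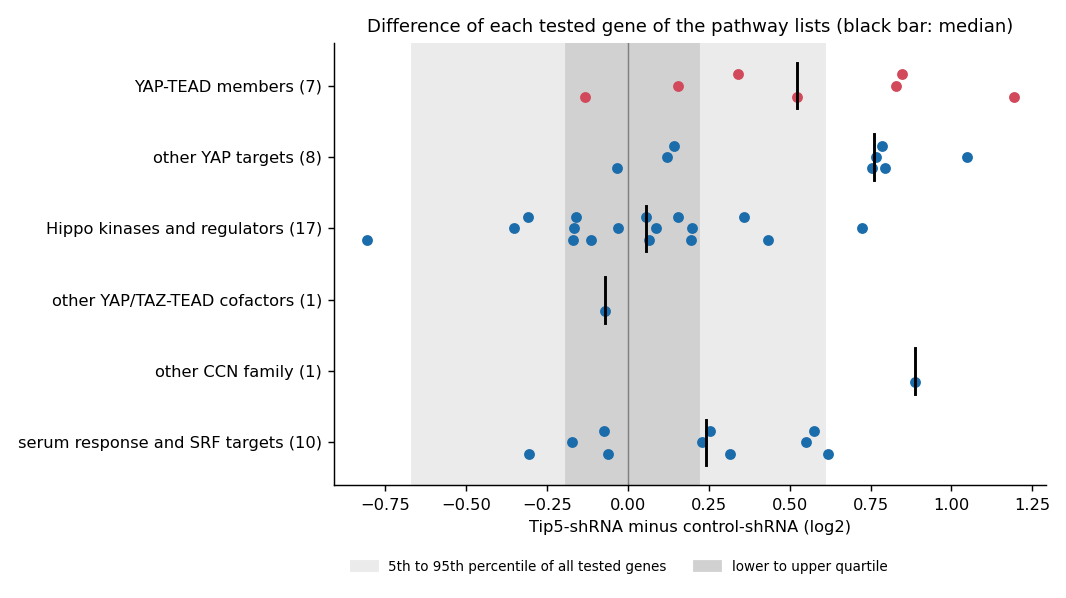
Difference between Tip5-shRNA and control-shRNA (log2) of every gene that entered the comparison, by list, with the number of genes in brackets and the list's median as a black bar; grey bands hold the middle of all 9015 tested genes, from the 5th to the 95th percentile and between the quartiles. The YAP-TEAD genes (red) were chosen with their values known and reach 1.19, the further YAP targets reach 1.05, and the Hippo kinases and regulators spread to both sides of 0.

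The genes whose level followed that of Ccn2 most closely over the 6 arrays, by the root mean square distance between probe-centred log2 levels, were Sh3pxd2b (0.11), Lrrc15 (0.11) and Mmp14 (0.13). Sh3pxd2b is a podosome adaptor, Lrrc15 a leucine-rich repeat membrane protein and Mmp14 a membrane-bound matrix metalloproteinase. Mmp14 stood at 9.16, 8.83 and 9.17 in Tip5-shRNA and at 7.66, 7.71 and 7.79 in control-shRNA replicates 1, 2 and 3. For Ccn1 the closest were the dicarbonyl reductase Dcxr (0.12), Ptpn14 (0.15), which is on the list of further YAP targets, and the receptor chaperone Lrpap1 (0.17). Each of the 6 was higher in Tip5-shRNA by 0.70 to 1.34, which follows from the likeness by which they were picked.

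**Figure D5:**
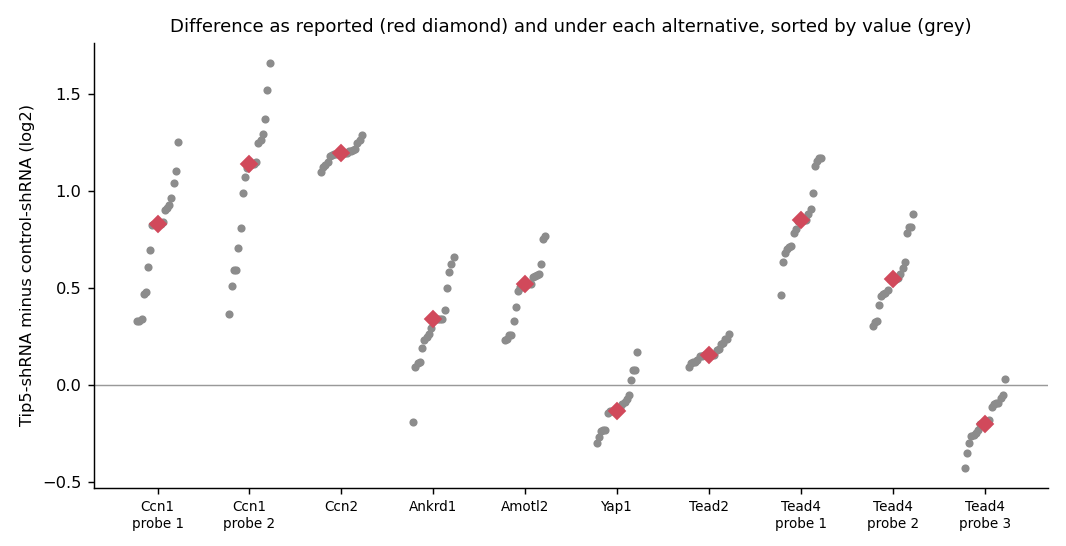
Difference between Tip5-shRNA and control-shRNA (log2) of the 10 probes as reported (red diamond) and under each alternative processing or left-out array (grey, sorted by value). Ccn2 stays between 1.10 and 1.29, the first Ccn1 probe runs from 0.33 to 1.25, and Ankrd1, Yap1 and the third Tead4 probe reach both sides of 0.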

How the data were processed

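RNA of 3 Tip5-shRNA and 3 control-shRNA cultures was measured on Illumina mouse BeadChip arrays. Each array's deposited values are a linear probe intensity and, per the file headers, its detection p-value. The submitters' processing notes list GenomeStudio 2011.1 with no role. The deposited intensity has no background subtracted, as its values show. A second deposited table holds the authors' processed intensity, which follows the signal as a straight line above a floor of 1, and was used only as an alternative. Its column medians were 14.6, 15.7 and 19.2 in Tip5-shRNA and 16.2, 16.4 and 16.6 in control-shRNA replicates 1, 2 and 3. It is on a linear scale, is not centred and runs in the direction of the signal, while the origin of its constants is unknown.

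From the signals, log2 levels were computed with limma 3.58.1 in R 4.3.3 (normexp background with offset 16, quantile normalization). The 13064 probes detected at p below 0.05 on 3 or more arrays were tested with lmFit and eBayes, with Benjamini-Hochberg adjustment and a threshold of 0.05. SE is the moderated standard error. A gene stands by its brightest tested probe. Symbols came from the platform annotation, updated through the Entrez identifier with the GRCm38.p6 gene table (23962 of 23978 probes with 1 symbol, and 1719 have none). A probe above background on no array of a group has only a bound there, set at the lowest detected signal of each array. Marker sums are linear levels after the offset was subtracted, and their split into single genes was made after the values were seen. The fit was tested on simulated data with planted differences larger than that of any member, so the test does not cover differences of their size. The number of arrays limits the precision.

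The members and lists were chosen with earlier results of these data known. Named genes are the members, every called gene of the other lists or else the 3 with the largest difference, and the 3 closest to Ccn1 and to Ccn2. Other genes named with values were chosen after the values were seen. The titles give the replicate numbers, and the labels speak of each transfection, with nothing more on how cultures were paired. If the samples of a group are not separate cultures, the p-values measure only the spread between these arrays. Deviations from the group means correlated at 0.441, 0.520 and 0.711 between same-numbered arrays of pairs 1, 2 and 3. All were over 0.1, so the numbers were taken to pair the arrays. The correlations across pairs 1 and 2 (0.456 and 0.372) also passed 0.1, so the rule cannot decide how replicates 1 and 2 pair. The replicate block and the differences within pairs rest on the numbering. Alternatives covered the background, the normalization, the filter, the variance model, array weights, the replicate block and left-out arrays.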

Additional observations from a re-analysis of the deposited data

How the results depend on the processing

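Of the 7 member genes tested, limma called 0 with 2-group means, against 7 of all 9015 tested genes. At an unadjusted limma p under 0.05 there were 3, against 1009 of 9015. The replicate block called 1 (Ccn2), against 176 of 9015, and a variance trend 1 (Ccn2), against 24 of 9015. Array weights called 2 (Ccn2 and Tead4), against 898 of 9015. Replicates 1 and 2 only called the same 2, against 753 of 9015. Leaving out 1 array gave 0 called members. Without Tip5-shRNA replicate 3, however, another Tead4 probe was the brightest and stood for the gene, while the Tead4 probe reported here narrowly passed the threshold. With the block, leaving out replicate 1, 2 or 3 gave 0 to 2. Of the 37 other pathway genes tested, 0 were called with 2-group means or the block, against 7 and 176 of 9015. Array weights called 5 of the 37 (Ccn4, Fjx1, Gadd45a, Igfbp3 and Rassf1), against 898 of 9015. Replicates 1 and 2 only called 4 of the 37 (Ccn4, Fjx1, Igfbp3 and Junb), against 753 of 9015. With the block and 1 replicate left out, 0 to 6 of the 37 were called, 6 being without replicate 3, against 1143 of 9015. Over all genes 7 were called, against 2 with no background correction, 23 with offset 50, 20 with cyclic loess, 4 with median scaling, 1 with the authors' processed values, 0 with no filter (1520 at an unadjusted p under 0.05 in limma), 24 with a variance trend, 898 (397 higher) with array weights, 26 with the mean of probes, 176 with the replicate block and 753 with replicates 1 and 2 only. Leaving out 1 array gave 0 to 91 (91 without Tip5-shRNA replicate 3, 33 without control-shRNA replicate 3), and with the block 16 without replicate 1, 0 without replicate 2 (1266 at an unadjusted p under 0.05) and 1143 without replicate 3. Replicates 1 and 2 only was chosen after the data were seen. The cause of these changes was not tested.

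The difference of Ccn2 stayed between 1.10 and 1.29 over 20 alternatives. That of the first Ccn1 probe fell to 0.34 with no background correction and to 0.33 with replicates 1 and 2 only, and that of Amotl2 to 0.24 with no background correction and 0.23 without Tip5-shRNA replicate 3. The brightest Tead4 probe gave 0.46 with no background correction. The median of the further YAP targets was 0.26 with no background correction, 0.23 with no filter and 0.44 with replicates 1 and 2 only. Wwtr1 (-0.07) ranged from -0.18 to 0.14 when 1 array was left out and changed sign, to 0.01 without Tip5-shRNA replicate 2, 0.14 without control-shRNA replicate 2 and 0.22 with the block and without replicate 2. With no background correction Nt5e gave 0.31, Ptpn14 0.32, Ccn4 0.26 and Tagln 0.16, and Ccn4 gave 1.26 in the authors' processed values. Signals near background limit these genes, Ccn1, Ankrd1 and Baz2a.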
